A study of Mus musculus with 10 samples.

Results

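The 39 DNA replication genes described here are a named set of regulators of S-phase entry, origin licensing and helicase factors, polymerases and their clamp machinery, enzymes of nucleotide supply and factors of newly made chromatin. Each gene was read from the probe sets annotated with its symbol alone, using the brightest where there were several. All 39 were measured, out of 19938 genes with such a probe set, and all 39 passed the level filter that left 15662 genes for testing. Their RNA was measured on 10 arrays of c-Kit-positive cells sorted from mouse acute myeloid leukaemias made with MLL-AF9, a fusion oncogene that keeps myeloid progenitors dividing. Every line carried Cre-ER, a Cre recombinase activated by 4-hydroxytamoxifen (4-OHT), and the series title asks how deletion of the X-linked transcription factor gene Zfx alters expression in these cells. The groups were Zfx fl/y cells with 10 nM 4-OHT (fl 4-OHT) and with ethanol vehicle (fl vehicle), from lines 10949, 10950 and 10986, and Zfx wt/y cells with 10 nM 4-OHT (wt 4-OHT) and with ethanol vehicle (wt vehicle), from lines 10977 and 10980. There was 1 array per line and treatment, taken after 72 h. The wt lines received Cre-ER and 4-OHT too, so they show the effect of both without a floxed allele. Each line is 1 primary leukaemia isolated from moribund mice, and neither the promoter driving Cre-ER nor the floxed exons are named in the labels.

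DNA replication is prepared in G1, when the origin recognition complex, Cdc6 and Cdt1 load the MCM helicase onto origins. E2F transcription factors and cyclin E then switch on S phase, Cdc45 and the GINS complex turn the loaded MCM ring into a working helicase, and polymerases, the sliding clamp Pcna and its loader replication factor C copy both strands. Many of these genes are transcribed in late G1 and S phase under E2F control, so their RNA in a cell population follows the share of cells that are dividing as well as the RNA per dividing cell. In bulk RNA such as this, fewer cells of a type and less RNA per cell cannot be told apart.

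Promoter windows of 4 members are printed because they carry E2F-type sequence words and belong to genes whose values differ most in pattern below: Mcm5 and Mcm6 are subunits of one helicase that moved in opposite directions in line 10986, Pold1 was lower with 4-OHT in all 3 fl lines, and Rfc3 had the largest estimate of the set. Each window runs 5′ to 3′ on the gene's strand, covers 250 bases before the RefSeq start to 50 after it in GRCm38.p6, and has the E2F words in capitals. The windows are Mcm5 at chr8:75109259-75109558 on the plus strand, Mcm6 at chr1:128359656-128359955 on the minus strand, Pold1 at chr7:44548766-44549065 on the minus strand and Rfc3 at chr5:151651159-151651458 on the minus strand.
Mcm5: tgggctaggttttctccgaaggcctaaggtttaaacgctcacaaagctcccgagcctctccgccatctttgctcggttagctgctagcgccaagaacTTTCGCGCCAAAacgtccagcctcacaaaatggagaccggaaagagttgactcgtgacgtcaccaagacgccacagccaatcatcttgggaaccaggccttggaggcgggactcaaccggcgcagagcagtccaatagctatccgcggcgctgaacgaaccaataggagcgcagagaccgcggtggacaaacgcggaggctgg
Mcm6: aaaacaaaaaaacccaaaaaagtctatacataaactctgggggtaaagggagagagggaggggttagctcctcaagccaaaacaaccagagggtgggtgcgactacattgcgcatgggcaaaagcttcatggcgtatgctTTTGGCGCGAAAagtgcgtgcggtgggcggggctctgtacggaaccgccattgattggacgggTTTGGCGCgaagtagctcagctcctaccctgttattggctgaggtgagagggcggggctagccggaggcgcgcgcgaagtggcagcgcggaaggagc
Pold1: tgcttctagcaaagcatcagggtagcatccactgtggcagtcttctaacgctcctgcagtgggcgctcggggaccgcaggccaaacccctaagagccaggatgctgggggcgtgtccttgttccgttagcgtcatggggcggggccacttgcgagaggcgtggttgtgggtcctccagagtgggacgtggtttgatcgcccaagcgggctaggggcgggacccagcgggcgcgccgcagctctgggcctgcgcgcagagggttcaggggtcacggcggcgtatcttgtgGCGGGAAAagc
Rfc3: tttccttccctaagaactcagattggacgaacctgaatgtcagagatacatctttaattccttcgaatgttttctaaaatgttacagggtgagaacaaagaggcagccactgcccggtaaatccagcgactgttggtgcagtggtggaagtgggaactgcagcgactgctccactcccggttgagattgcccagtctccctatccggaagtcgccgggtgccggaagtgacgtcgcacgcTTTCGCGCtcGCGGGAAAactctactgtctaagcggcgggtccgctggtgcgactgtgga

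The search covered 4 E2F words, TTTCCCGC, TTTCGCGC, TTTGCCGC and TTTGGCGC, on both strands. In Mcm5 the words TTTCGCGC and, on the opposite strand, TTTGGCGC overlap and together span positions -153 to -142 from the start, and in Mcm6 a like overlapping pair spans -110 to -99 with a further TTTGGCGC at -47 to -40. The Pold1 window holds 1 word, at 40 to 47 after the start, and the Rfc3 window holds a word at -10 to -3 and another at 1 to 8. RefSeq windows were found for 33 of the 39 members, 39 windows in all, and 14 of these windows (35.9%), from 14 genes, held an E2F word, against 2.26% of all 32851 windows. The word CCAAT, searched on both strands, was in 61.5% of the members' windows and 37.4% of all windows. The palindrome AGGCCT was in 15.4% of the members' windows and 10.3% of all. The windows of E2f1, Ccne1, Tk1 and Rfc4 held none of the E2F words. These matches describe letters in the windows and were not tested as binding sites. The median change with 4-OHT of the 14 members with an E2F word was 0.08, 0.02 and 0.20 (log2) in fl lines 10949, 10950 and 10986 and 0.06 in each wt line, and that of the 19 without one was 0.05, -0.06 and 0.37 in the fl lines and -0.08 and -0.05 in the wt lines.

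The targeted gene and the arrays were checked first. Zfx itself stood at 10.07, 9.98 and 10.02 log2 signal on the 4-OHT arrays of fl lines 10949, 10950 and 10986, against 10.09, 9.63 and 9.24 on their vehicle arrays. Its signal was therefore not lower with 4-OHT (log2 change 0.37, SE 0.16, limma adjusted p = 0.407), and the labels do not say whether its probes lie inside the deleted exons, so the arrays do not check the deletion. All 12 markers of leukaemic myeloid progenitors passed the level filter, among them Kit at 8.35 to 9.94, as did 4 of the 8 measured lymphoid markers, with mean levels of 11.15 for Nkg7, 10.17 for Cd79b, 8.34 for Ighm and 7.03 for Cd3e, and 5 of the 6 measured erythroid and megakaryocyte markers (Klf1, Epor, Gata1, Itga2b and Gp9, at 6.55 to 7.44). The lymphoid markers Cd3g, Cd79a, Ms4a1 and Il7r and the megakaryocyte marker Pf4 did not. All 6 mast cell and basophil markers passed the filter, with mean levels from 6.31 for Ms4a2 to 9.69 for Mcpt8. The vehicle array of line 10986 stood apart, with a mean correlation of 0.961 with the other arrays, where the others had 0.979 to 0.985. The change with 4-OHT over all genes had an SD of 0.497 in that line and of 0.174 to 0.263 in the other 4 lines. Without this line the fl changes of 14 of the 39 members took the opposite sign, a count by sign alone with no share of all genes beside it. Some ended near 0, as Orc1, Orc6 and Cdc6 at -0.01, and others did not, as Ccne2 at -0.33 and Prim1 at -0.20. The values without line 10986 stand beside the results it bears on most.

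Between fl 4-OHT and fl vehicle, none of the 39 replication genes passed the test (limma with the line as a block, Benjamini-Hochberg adjusted p under 0.05), where 24 of all 15662 genes did (0.153%), 8 higher and 16 lower. The members' log2 changes ran between -0.39 for Tk1 and 0.79 for Rfc3, with a median of 0.10 against 0.00 over all genes, and a median SE of 0.12. At an unadjusted p under 0.05 there were 6 members, Ccne1, Mcm4 and Rfc3 higher and E2f1, Pold1 and Tk1 lower, which is 6 of 39 beside 12.3% of all genes. The 95% interval of the change lay within 2-fold in both directions for 37 members, the exceptions being Rfc3 and Rfc4, beside 95.5% of all genes. It lay within 1.5-fold for 26 members, beside 76.9% of all genes. Weighting the arrays by their fit called 10 members, beside 24.9% of all genes, and that weighting rested on line 10949. The plot of intervals by gene shows that most intervals of both genotypes overlap 0.

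**Figure D1:**
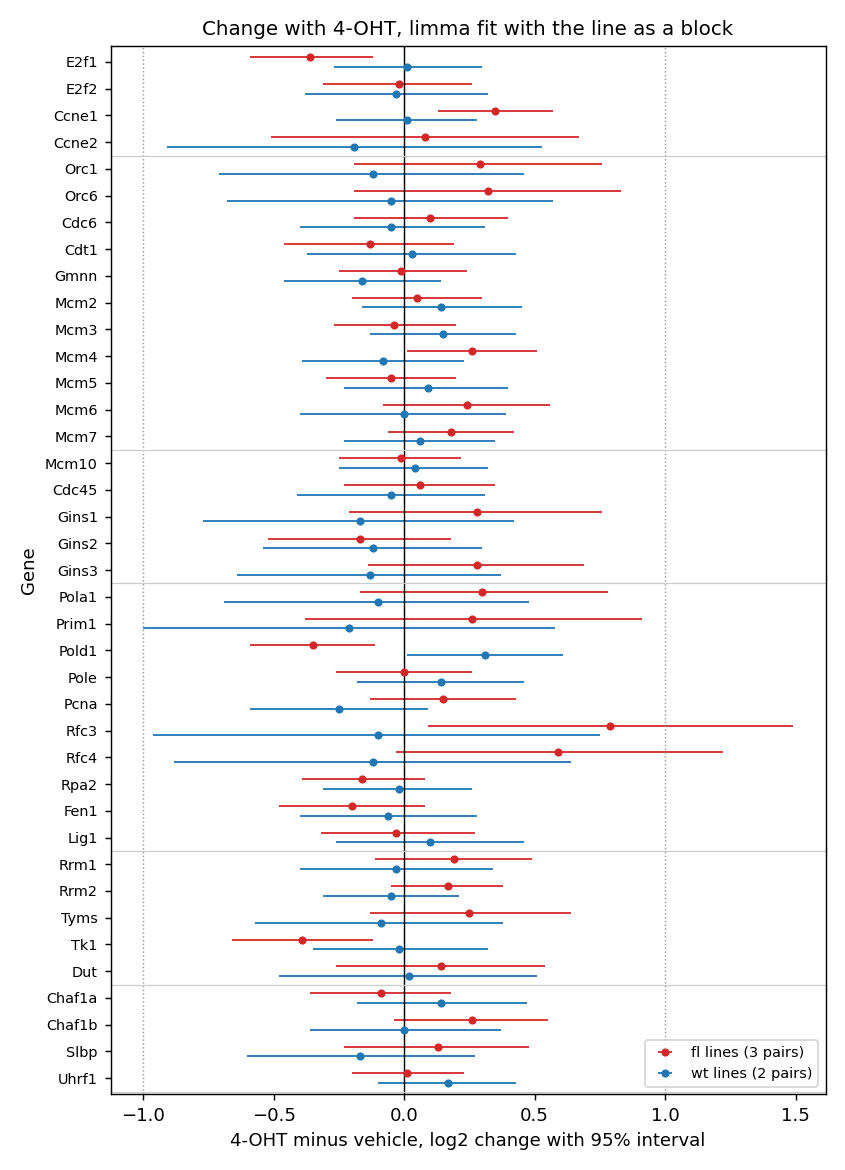
Log2 change with 4-OHT (4-OHT minus vehicle) of each replication gene, with its 95% interval from limma, in the fl lines (red, 3 pairs) and the wt lines (blue, 2 pairs), with grey lines between roles and dotted lines at a 2-fold change. In the fl lines only Rfc3 and Rfc4 reach beyond a 2-fold change, and Tk1 has the lowest estimate at -0.39.

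Among the regulators of S-phase entry, E2f1 and Ccne1 moved in opposite directions in every fl line. E2f1, a transcription factor that activates S-phase genes (probe set 10488785, chromosome 2), stood at 9.22, 9.24 and 9.14 on the 4-OHT arrays of fl lines 10949, 10950 and 10986, against 9.68, 9.56 and 9.43 on their vehicle arrays. Its 4-OHT and vehicle arrays did not overlap, and all 3 lines were lower with 4-OHT. The wt lines stood at 9.72 and 9.70 with 4-OHT, against 9.59 and 9.79 with vehicle, so 1 line was higher and 1 lower. The fl change was -0.36 (SE 0.10, a 0.78-fold level, adjusted p = 0.206), and without line 10986 it was -0.39 (adjusted p = 0.09). Ccne1 encodes cyclin E1, which drives Cdk2 at the start of S phase (probe set 10562563, chromosome 7). It stood at 11.05, 10.84 and 10.93 on the fl 4-OHT arrays, against 10.69, 10.55 and 10.53 on the fl vehicle arrays, again with no overlap but with the 4-OHT arrays on the high side. The wt lines had 10.81 and 10.59 with 4-OHT, against 10.73 and 10.65 with vehicle, and the wt arrays overlapped. Its fl change was 0.35 (SE 0.09, 1.27-fold, adjusted p = 0.196) and 0.32 without line 10986 (adjusted p = 0.122).

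The other regulators were less even. Ccne2, the second E-type cyclin, stood at 10.17, 9.75 and 10.31 on the fl 4-OHT arrays, against 10.60, 9.99 and 9.40 on the fl vehicle arrays. Lines 10949 and 10950 were lower with 4-OHT and line 10986 was higher, its vehicle array being the lowest of all 10, and the fl change of 0.08 was -0.33 without that line. For Ccne2 the wt lines stood at 10.23 and 10.11 with 4-OHT, against 10.47 and 10.26 with vehicle, lower in both pairs and without overlap. With so few wt arrays, a lack of overlap between the wt groups is weak evidence, here and for the genes below. The share of all genes whose wt groups did not overlap is not given, so a lack of overlap there does not set any member apart. E2f2, another activating E2F, had changes of -0.26, 0.13 and 0.06 in the 3 fl lines, a mean of -0.02. Of the 39 members, E2f1 was the only one whose fl 4-OHT arrays all lay below the fl vehicle arrays (7.27% of all genes did so), and Ccne1 and Mcm4 were those whose fl 4-OHT arrays all lay above them (4.55% of all genes).

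The 11 origin licensing genes had fl changes between -0.13 for Cdt1 and 0.32 for Orc6, with a median of 0.10, which was 0.03 without line 10986. Within the helicase they load, the subunits differed. Mcm4 (chromosome 16) stood at 11.11, 10.96 and 11.08 on the fl 4-OHT arrays, against 10.84, 10.89 and 10.64 on the fl vehicle arrays. The fl 4-OHT arrays were all above the fl vehicle arrays, by as little as 0.07 in line 10950. The wt lines had Mcm4 at 10.87 and 10.99 with 4-OHT, against 10.95 and 11.08 with vehicle, lower in both, with overlapping groups. Its fl change was 0.26 (SE 0.11, adjusted p = 0.388). Mcm6 and Mcm7 were also higher with 4-OHT in all 3 fl lines, by 0.05, 0.06 and 0.60 for Mcm6 and by 0.14, 0.06 and 0.34 for Mcm7, with overlapping groups. Their fl changes were 0.24 and 0.18, with adjusted p of 0.569 and 0.55, and without line 10986 those of Mcm4, Mcm6 and Mcm7 were 0.17, 0.06 and 0.10. Mcm2, Mcm3 and Mcm5 did not follow them: in line 10986 they were lower with 4-OHT, with changes of -0.11, -0.13 and -0.25 (log2), and in both wt lines they were higher, as Mcm7 was.

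On the vehicle array of line 10986 the subunits lay on both sides of the mean of the other fl vehicle arrays. Relative to that mean, Mcm4, Mcm6 and Mcm7 were at -0.23, -0.51 and -0.28 (log2), and Mcm2, Mcm3 and Mcm5 at 0.26, 0.24 and 0.35. The mean includes the vehicle array of line 10949, the lowest of all 10 for Mcm2, Mcm3 and Mcm5. For Mcm2 and Mcm3 the array of line 10986, at 11.14 and 10.69, was close to that of line 10950, at 11.11 and 10.64. Mcm5 stood at 10.97, 11.11 and 11.10 on the fl 4-OHT arrays, against 10.85, 11.13 and 11.35 on the fl vehicle arrays. The array of 11.35 was the highest of all 10 for Mcm5. Both wt lines had Mcm5 at 11.19 with 4-OHT, against 11.13 and 11.09 with vehicle. Mcm6 stood at 11.73, 11.48 and 11.64 on the fl 4-OHT arrays, against 11.68, 11.42 and 11.04 on the fl vehicle arrays, where 11.04 was the lowest of all 10 arrays. Both windows printed above hold an overlapping pair of E2F words. Mcm3 stood at 10.30, 10.62 and 10.56 on the fl 4-OHT arrays, against 10.26, 10.64 and 10.69 on the fl vehicle arrays, and the ranges overlapped. Its wt values were 10.58 and 10.81 with 4-OHT, against 10.52 and 10.57 with vehicle, higher in both lines and without overlap. The wt change of Mcm3 was 0.15 (SE 0.12, adjusted p = 1.0).

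**Figure D2:**
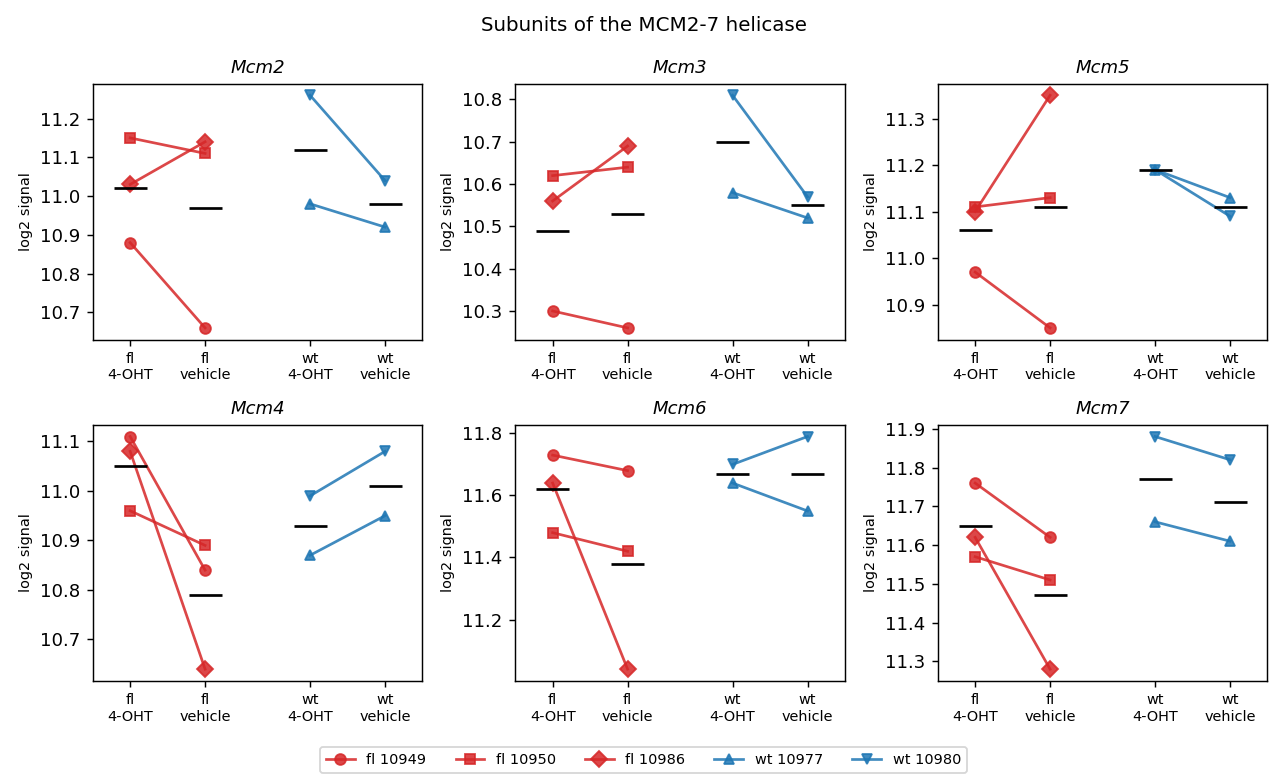
Log2 signal of the 6 subunits of the MCM helicase on each array, by group (fl 4-OHT, fl vehicle, wt 4-OHT, wt vehicle), with lines joining the arrays of 1 line and black bars at group means. The vehicle array of line 10986 (red diamond) is the highest fl vehicle array for Mcm2, Mcm3 and Mcm5 and the lowest of all arrays for Mcm4, Mcm6 and Mcm7.

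Among the loaders and their regulators, no gene moved one way in all 3 fl lines. Orc6, a small subunit of the origin recognition complex, stood at 11.32, 10.93 and 11.36 on the fl 4-OHT arrays, against 11.20, 11.07 and 10.38 on the fl vehicle arrays. Line 10986 held both the highest and the lowest of these values, and lines 10949 and 10950 went opposite ways. Without line 10986 the Orc6 change of 0.32 was -0.01. Its wt values were 11.07 and 10.99 with 4-OHT, against 10.95 and 11.22 with vehicle, in overlapping ranges. Orc1, the largest subunit, had changes of 0.24, -0.25 and 0.87 in the 3 fl lines, a mean of 0.29 that was -0.01 without line 10986. Cdt1, which brings the helicase to origins, had changes of -0.13, 0.19 and -0.46, and Gmnn, the Cdt1 inhibitor geminin, by -0.05, -0.14 and 0.16. Cdc6, the ATPase that works with Cdt1, had changes of -0.11, 0.08 and 0.34.

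The 5 helicase activation genes, Mcm10, Cdc45, Gins1, Gins2 and Gins3, were all higher with 4-OHT in line 10986, by 0.12 to 0.95, and all lower in line 10950, with changes of -0.02 to -0.27. In line 10949 Gins3 was the single one that was higher, by 0.20, and Gins2 had the lowest value of the group, -0.47. In wt line 10977 all 5 were lower, with changes of -0.02 to -0.21, and in wt line 10980 Mcm10 was higher by 0.10 and the other 4 lower. The fl changes of the 5 had a median of 0.06, which turned to -0.08 without line 10986, and with all lines none had an adjusted p below 0.615. The fl change of Gins2 was -0.17 with all lines and -0.37 without line 10986 (limma adjusted p = 0.0946), the lowest adjusted p of the 5 in that fit.

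The 10 genes of fork synthesis held the widest spread. Rfc3 and Rfc4, subunits of the clamp loader that places Pcna on DNA, had the largest fl estimates of the whole set. Rfc3 (probe set 10535979, chromosome 5) stood at 11.03, 10.09 and 10.81 on the fl 4-OHT arrays, against 10.94, 9.58 and 9.04 on the fl vehicle arrays. All 3 lines were higher with 4-OHT, but the lines differ so much that the groups overlap, with steps of 0.09, 0.51 and 1.77 in lines 10949, 10950 and 10986. The wt lines stood at 10.68 and 10.66 with 4-OHT, against 10.68 and 10.86 with vehicle. The fl change of Rfc3 was 0.79 (SE 0.29, 1.73-fold, adjusted p = 0.338), and without line 10986 it was 0.30 (adjusted p = 0.252). Rfc4 (probe set 10438690, chromosome 16) stood at 12.72, 12.06 and 12.50 on the fl 4-OHT arrays, against 12.66, 11.82 and 11.02 on the fl vehicle arrays. The pattern over the lines was that of Rfc3, with overlap between the groups and the largest step in line 10986. Its wt values were 12.55 and 12.53 with 4-OHT, against 12.72 and 12.60 with vehicle, lower in both. The fl change of 0.59 (SE 0.26, adjusted p = 0.434) was 0.15 without line 10986 (adjusted p = 0.476).

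Pold1 was lower with 4-OHT in every fl line and higher in both wt lines. It encodes the catalytic subunit of DNA polymerase delta, which copies the lagging strand (probe set 10562818, chromosome 7). Its values were 9.10, 9.51 and 9.17 on the fl 4-OHT arrays, against 9.44, 9.80 and 9.59 on the fl vehicle arrays. Every fl line was lower with 4-OHT, with changes of -0.34, -0.28 and -0.42, although the groups overlap at 9.51 against 9.44. The wt lines stood at 9.41 and 9.83 with 4-OHT, against 9.25 and 9.38 with vehicle, with no overlap between those groups. The fl change was -0.35 (SE 0.10, adjusted p = 0.232), and -0.31 without line 10986 (adjusted p = 0.167). In the wt lines the change was 0.31 (SE 0.13, unadjusted p = 0.0444 by limma, adjusted p = 1.0), and it was 0.16 in line 10977 and 0.46 in line 10980. Pold1 was the single member lower in 3 of 3 fl lines and higher in 2 of 2 wt lines, a pattern shown by 3.49% of all genes.

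The other polymerase and fork genes gave smaller estimates. Prim1, the catalytic subunit of primase, stood at 10.66, 9.87 and 10.57 on the fl 4-OHT arrays, against 10.80, 10.14 and 9.38 on the fl vehicle arrays. Lines 10949 and 10950 were lower and line 10986 was higher by 1.19, so the fl change of 0.26 (SE 0.27) rested on that line, and without it was -0.20 (adjusted p = 0.332). Its wt values were 10.42 and 10.51 with 4-OHT, against 10.72 and 10.64 with vehicle, lower in both lines and without overlap. Pola1, the catalytic subunit of polymerase alpha that extends the primer, had changes of 0.14, -0.15 and 0.92 in the fl lines (a mean of 0.30, and 0.00 without line 10986), and Pole, the leading-strand polymerase, by 0.23, -0.10 and -0.12. Pcna, the sliding clamp, stood at 13.37, 13.08 and 13.19 on the fl 4-OHT arrays, against 13.31, 13.06 and 12.83 on the fl vehicle arrays, higher in each line and with overlapping groups. Pcna in the wt lines stood at 13.17 and 13.14 with 4-OHT, against 13.56 and 13.25 with vehicle, lower in both and without overlap. The wt change of Pcna, -0.25 (SE 0.14, adjusted p = 1.0), was the lowest estimate of any member in those lines. Its other probe set gave per-line changes within 0.05 of these.

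Fen1, the nuclease that trims Okazaki fragments, stood at 9.23, 9.11 and 9.20 on the fl 4-OHT arrays, against 9.42, 9.50 and 9.21 on the fl vehicle arrays. All 3 fl lines were lower with 4-OHT, line 10986 with a change of only -0.01. Its wt values were 9.01 and 9.23 with 4-OHT, against 9.22 and 9.14 with vehicle. Rpa2, a subunit of the single-strand binding complex, was lower in all 3 fl lines too, with changes of -0.23, -0.18 and -0.06. Lig1, which seals the fragments, had changes of 0.17, 0.08 and -0.33. The fl changes of Fen1, Rpa2 and Lig1 were -0.20, -0.16 and -0.03, with adjusted p of 0.585, 0.612 and 0.994, and without line 10986 that of Lig1 was 0.13.

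**Figure D3:**
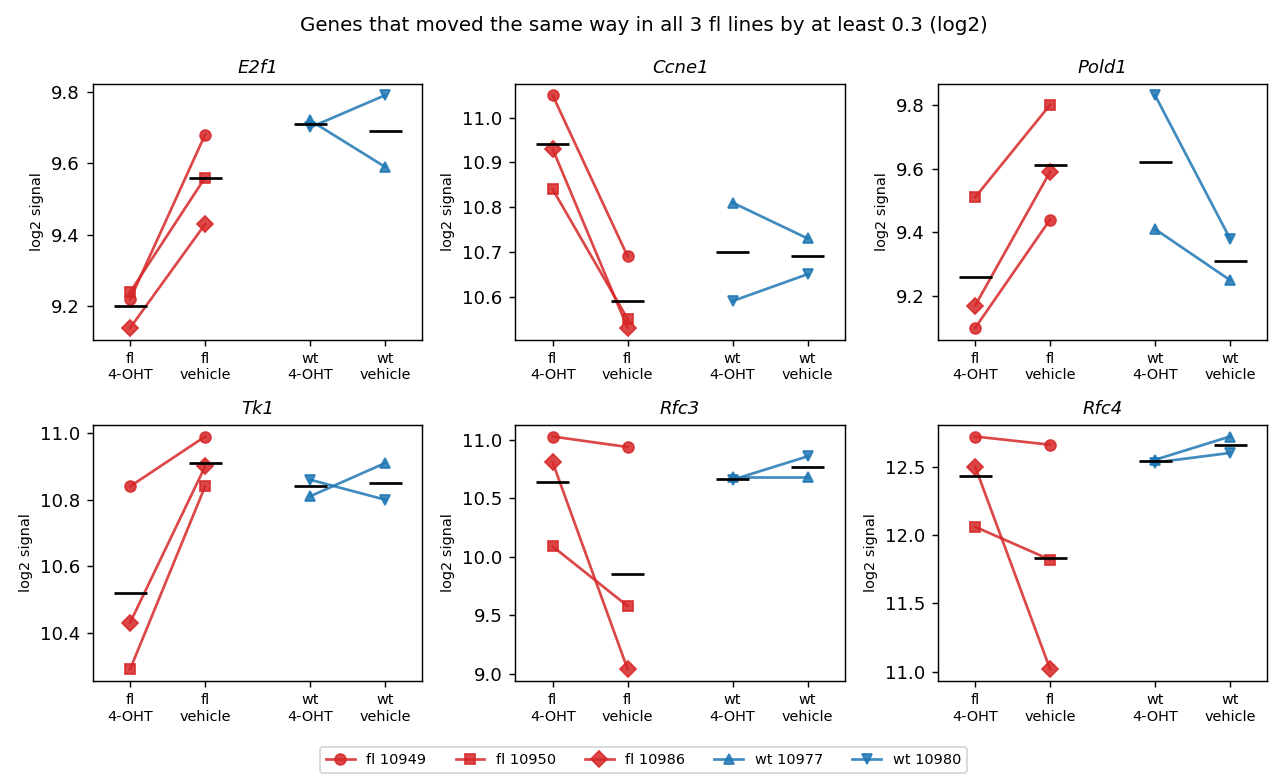
Log2 signal on each array of the 6 replication genes that moved the same way with 4-OHT in all 3 fl lines by a mean of at least 0.3, by group (fl 4-OHT, fl vehicle, wt 4-OHT, wt vehicle), with lines joining the arrays of 1 line and black bars at group means. E2f1 and Ccne1 separate the fl 4-OHT from the fl vehicle arrays, and the steps of Rfc3 and Rfc4 are largest in line 10986.

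Of the 5 nucleotide supply genes, Tk1 was the one lower with 4-OHT in all 3 fl lines. It encodes thymidine kinase, which salvages thymidine in S phase (probe set 10393431, chromosome 11). Its values were 10.84, 10.29 and 10.43 on the fl 4-OHT arrays, against 10.99, 10.84 and 10.90 on the fl vehicle arrays. The groups touch at 10.84, where the highest 4-OHT array meets the lowest vehicle array. The wt lines stood at 10.81 and 10.86 with 4-OHT, against 10.91 and 10.80 with vehicle, with 1 line lower and 1 higher. The fl change was -0.39 (SE 0.11, 0.763-fold, adjusted p = 0.232), and -0.35 without line 10986 (adjusted p = 0.17). A second Tk1 probe set gave -0.07, -0.50 and 0.44 in the 3 fl lines, so the probe sets disagree in line 10986. With the mean of both probe sets the Tk1 change was -0.22 (adjusted p = 0.571), with arrays weighted by their fit it was -0.20, and without line 10949 it was -0.51. Rrm1 and Rrm2, the large and the small subunit of ribonucleotide reductase, were higher with 4-OHT in all 3 fl lines, Rrm1 by 0.05, 0.00 (rounded) and 0.52 and Rrm2 by 0.22, 0.14 and 0.15. Their fl changes were 0.19 and 0.17, with adjusted p of 0.642 and 0.533, and without line 10986 they were 0.03 and 0.18. Tyms, thymidylate synthase, had changes of 0.08, -0.07 and 0.74, and Dut, which removes dUTP, had changes of -0.30, 0.12 and 0.60. Without line 10986 their fl changes of 0.25 and 0.14 were 0.01 and -0.09.

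The 4 chromatin genes had fl changes between -0.09 for Chaf1a and 0.26 for Chaf1b. Chaf1a and Chaf1b, the large and middle subunits of the assembly factor that puts histones on new DNA, had changes of 0.13, -0.20 and -0.20 and by 0.26, -0.01 and 0.52 in the 3 fl lines. Slbp, which binds histone mRNA, had changes of -0.15, -0.03 and 0.56, and its second probe set by 0.12, -0.15 and 0.90. Uhrf1, which carries DNA methylation onto the new strand, stood at 9.89, 10.06 and 10.04 on the fl 4-OHT arrays, against 9.82, 10.07 and 10.06 on the fl vehicle arrays. Those arrays overlap, and the fl change was 0.01 (SE 0.09), with an interval of -0.20 to 0.23. In the wt lines Uhrf1 stood at 10.13 and 10.34 with 4-OHT, against 9.99 and 10.15 with vehicle, higher in both but overlapping.

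Taken line by line, the set did not move together. The members' median change with 4-OHT was 0.05, -0.03 and 0.34 (log2) in fl lines 10949, 10950 and 10986 and -0.05 in each wt line. In the same order 22, 15, 26, 16 and 16 of the 39 members were higher with 4-OHT, beside 47.4%, 57.5%, 45.5%, 50.8% and 49.1% of all genes. In all 3 fl pairs, 9 members were higher (Ccne1, Mcm4, Mcm6, Mcm7, Pcna, Rfc3, Rfc4, Rrm1 and Rrm2), beside 14.6% of all genes. Another 5 were lower in all 3 (E2f1, Pold1, Rpa2, Fen1 and Tk1), beside 14.5% of all genes. Of the 9 higher members, 6 were lower in both wt lines (Mcm4, Pcna, Rfc3, Rfc4, Rrm1 and Rrm2), a pattern shown by 4.58% of all genes. These counts go by sign alone and include differences below 0.005, those of Rrm1 in lines 10950 and 10980 and of Rfc3 in line 10977. The members' median fl change of 0.10 was 0.00 with line 10986 left out and 0.01 after quantile normalization.

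**Figure D4:**
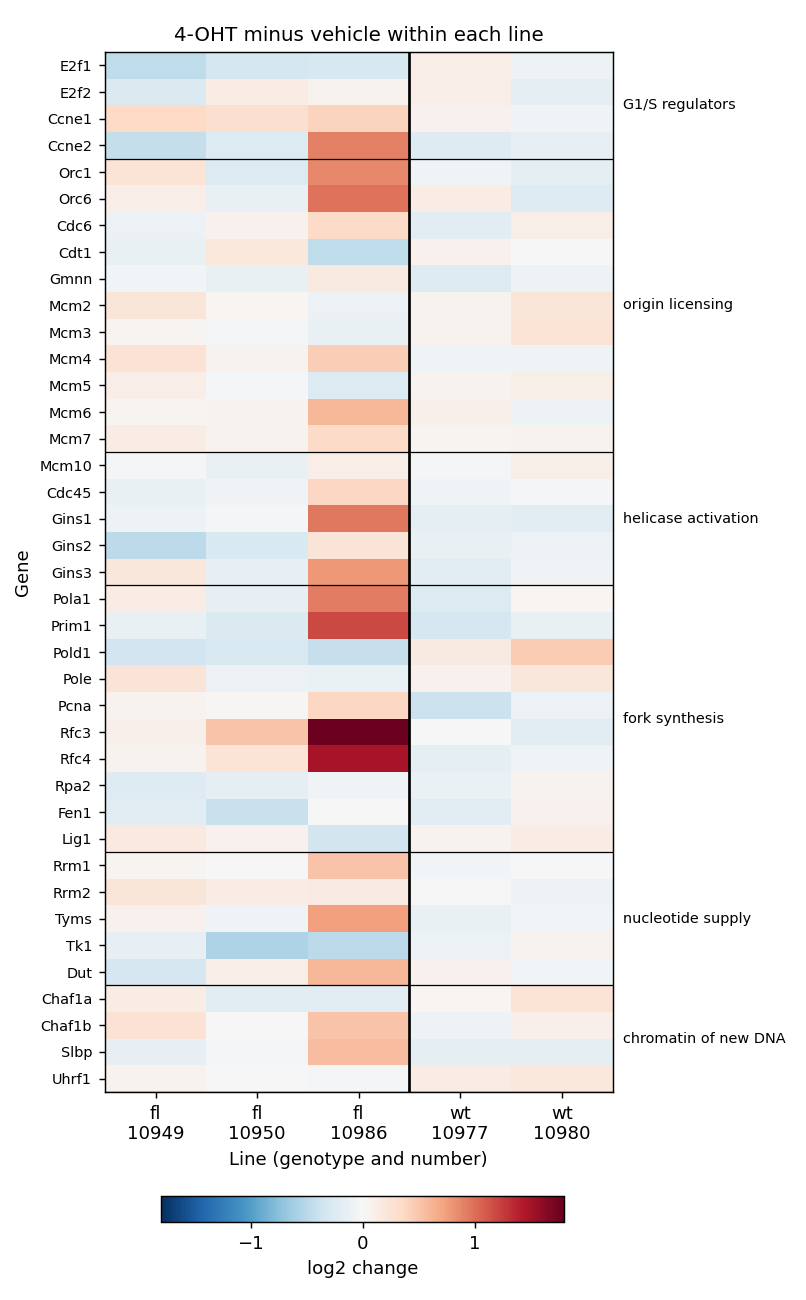
Log2 change with 4-OHT (4-OHT minus vehicle) of each replication gene in each line, fl lines left of wt lines, with genes grouped by role. Red is higher and blue lower with 4-OHT, and the deepest red squares are Rfc3 (1.77), Rfc4 (1.48) and Prim1 (1.19) in fl line 10986.

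The shift in line 10986 came with low values on its vehicle array. Because the change subtracts that array, low values there raise it by construction. For 24 of the 39 members that array was the lowest of all 10, beside 26.1% of all genes, and for Cdt1, Mcm5 and Lig1 it was the highest, beside 27.1% of all genes. Compared with the mean of the other fl vehicle arrays, the members on it had a median difference of -0.31 (all genes 0.02), and 20 members (51.3%) lay more than 0.3 below, where 26.9% of all genes did. Rfc3 and Rfc4 were both at -1.22, Prim1 at -1.09, Gins1 at -0.94 and Pola1 at -0.93, while Cdt1 was at 0.46 and Lig1 at 0.38. By sign alone, 29 of the 39 members lay below that mean, beside 7431 of all 15662 genes. Of the 60 measured genes in a wider list of replication factors, 51 lay below it, and the median difference of that list was -0.46. The progenitor marker list had a median change of -0.06, 0.04 and 0.00 in fl lines 10949, 10950 and 10986, and the monocyte and macrophage list of 0.79, 0.36 and 0.93. The progenitor markers went both ways, from -0.45 to 0.58, -0.31 to 0.44 and -0.70 to 2.09 in the same order. Their summed signal was 58695 to 65042 on fl 4-OHT arrays and 53696 to 67492 on fl vehicle arrays. It was 73540 to 74717 on wt 4-OHT arrays and 69978 to 75345 on wt vehicle arrays.

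**Figure D5:**
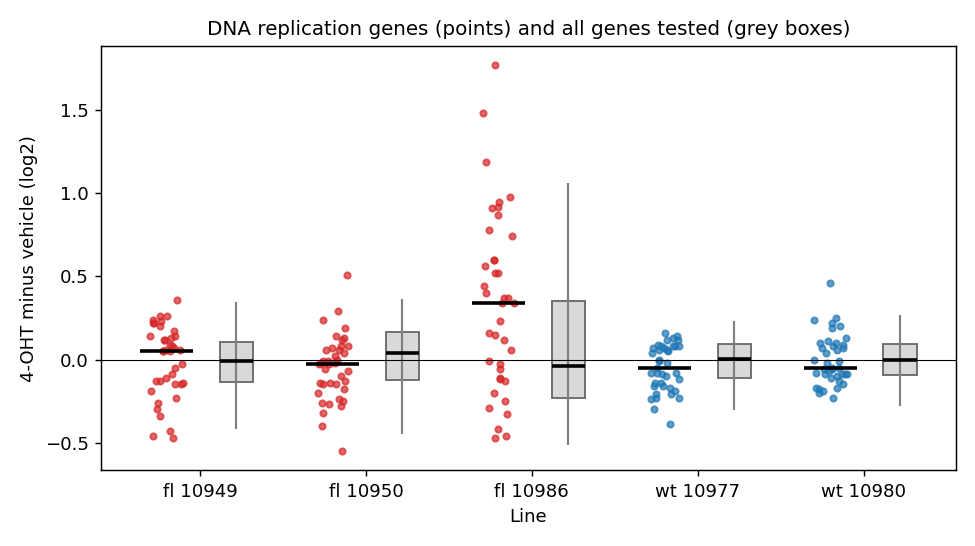
Log2 change with 4-OHT (4-OHT minus vehicle) of the 39 replication genes (points, black bar at the median) beside all genes tested (grey box for the quartiles, line for the 5th to 95th percentile) in each line, fl lines left of wt lines. The members' medians are 0.05, -0.03 and 0.34 in fl lines 10949, 10950 and 10986 and -0.05 in both wt lines.

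Some markers of maturing cells were higher with 4-OHT in all 3 fl lines, while the wt lines went opposite ways. Of 15 monocyte and macrophage markers, 13 had a probe set of their own, all past the level filter. Of these, 10 were higher with 4-OHT in all 3 fl lines, beside 14.6% of all genes. The test was passed by 3 (Ctss, Irf8 and Vcan), beside 0.153% of all genes. Their summed signal was 14003 to 23428 on fl 4-OHT arrays, 10422 to 15346 on fl vehicle arrays, 11260 to 19325 on wt 4-OHT arrays and 15202 to 15846 on wt vehicle arrays. Of 10 late neutrophil markers past the filter, 4 were higher with 4-OHT in all 3 fl lines, and Mmp8 passed the test, higher. The list's summed signal was 7806 to 15204 on fl 4-OHT arrays and 5773 to 9825 on fl vehicle arrays. It was 5783 to 24368 on wt 4-OHT arrays and 9685 to 20595 on wt vehicle arrays. In wt line 10977, 12 monocyte and macrophage markers and 9 late neutrophil markers were higher, beside 50.8% of all genes, and the median change of each list was 0.24. These counts were 3 and 0 in wt line 10980, beside 49.1% of all genes, with median changes of -0.31 and -0.37. No gene passed the test in the wt lines. The part of these markers in the values of the replication genes was not tested.

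In the wt lines, none of the 39 members passed the test for 4-OHT against vehicle, and neither did any of all 15662 genes (0.0%). At an unadjusted p under 0.05 there was 1 member, Pold1, beside 0.147% of all genes. The members' wt changes ran between -0.25 for Pcna and 0.31 for Pold1, with a median of -0.03 against 0.00 over all genes and a median SE of 0.15. After Pcna the lowest were Prim1 (-0.21) and Ccne2 (-0.19), and after Pold1 the highest were Uhrf1 (0.17) and Mcm3 (0.15). Both lines agreed in direction for 9 members that were higher (24.3% of all genes were) and 16 that were lower (24.5%). The 9 were Mcm2, Mcm3, Mcm5, Mcm7, Pold1, Pole, Lig1, Chaf1a and Uhrf1. The 95% interval lay within 2-fold for 38 members, all but Prim1, beside 97.8% of all genes.

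The fl change minus the wt change asks whether 4-OHT acted differently on cells with the floxed allele. No member passed that test, and none of all genes did (0.0%). The largest negative difference was that of Pold1, -0.66 (SE 0.16, limma unadjusted p = 0.00517, adjusted p = 0.677), followed by E2f1 (-0.37, adjusted p = 0.857) and Tk1 (-0.37, adjusted p = 0.875). The largest positive ones were Rfc3 (0.89, SE 0.46), Rfc4 (0.71, SE 0.41) and Prim1 (0.47, SE 0.43), with adjusted p of 0.883, 0.908 and 0.937. Without line 10986 these 3 were 0.40, 0.27 and 0.01. At an unadjusted p under 0.05 there were 2 members, E2f1 and Pold1, beside 5.82% of all genes. The intervals are wide here: they lay within 2-fold for 29 members (84.1% of all genes) and within 1.5-fold for 13 (46.8%).

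Set directly against wt 4-OHT, fl 4-OHT cells showed no member past the test either, where 101 of all genes passed (0.645%), 29 higher and 72 lower. E2f1 came nearest, at 9.20 ± 0.0553 in fl 4-OHT cells (SD, n = 3) and 9.71 ± 0.00907 in wt 4-OHT cells (SD, n = 2), a difference of -0.51 (SE 0.11, limma adjusted p = 0.0798). Pold1 and Tk1 followed at -0.36 and -0.32, with adjusted p of 0.5 and 0.524. The Pold1 difference was -0.15 without wt line 10980 and -0.57 without wt line 10977, and that of Tk1 was -0.20 without fl line 10950 and -0.48 without fl line 10949. On the positive side Ccne1 stood at 0.25 (SE 0.11, adjusted p = 0.448), Orc6 at 0.17 and Mcm4 at 0.12, and the Ccne1 difference was 0.14 without wt line 10980. For 8 members all fl 4-OHT arrays were below all wt 4-OHT arrays (E2f1, Cdt1, Mcm5, Gins2, Dut, Chaf1a, Chaf1b and Uhrf1), beside 14.2% of all genes, and for Ccne1 they were all above, beside 12.6%. The members' median difference was -0.10, against 0.02 over all genes, and it was 0.02 without fl line 10950. In the fit of all lines the 95% interval lay within 2-fold for 37 members (90.8% of all genes). This comparison and the fl change share the fl 4-OHT arrays.

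In the vehicle cultures, most members had lower values in fl than in wt lines, but none passed the test, where 3 of all genes did (0.0192%). The estimate was below 0 for all but 6 members (E2f2, Mcm5, Pold1, Fen1, Tk1 and Chaf1a), while it was above 0 for 54.3% of all genes. Their median difference was -0.22 against 0.03 over all genes, and it was -0.11 without line 10986 and -0.04 after quantile normalization. With a stricter level filter, at the 50th percentile, the median over all genes moved by -0.136, so part of this gap was shared by genes of higher level. Rfc3 had 9.85 ± 0.979 in fl vehicle cells (SD, n = 3) and 10.77 ± 0.127 in wt vehicle cells (SD, n = 2), a difference of -0.92 (SE 0.48, limma adjusted p = 0.519). Rfc4 differed by -0.82 (SE 0.39, adjusted p = 0.519) and Prim1 by -0.57 (SE 0.37, adjusted p = 0.534). Without line 10986 the differences of Rfc3, Rfc4 and Prim1 were -0.51, -0.42 and -0.21. The highest estimates were Pold1 at 0.30, Fen1 at 0.19 and Tk1 at 0.06, with adjusted p of 0.525, 0.527 and 0.836. Chaf1b was the 1 member with an unadjusted p under 0.05, at -0.40 (SE 0.13, adjusted p = 0.442), beside 9.83% of all genes. For Mcm4, Gins3, Rrm1, Rrm2 and Chaf1b every fl vehicle array was below both wt vehicle arrays (12.1% of all genes), and for Pold1 every one was above (18.6% of all genes). The 95% interval of the difference lay within 2-fold for 30 members (87.0% of all genes). Array weights called 24 members, beside 39.8% of all genes, but they did not reach their tolerance in this fit. The fl vehicle arrays enter both this comparison and the fl change.

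A wider list of 61 replication genes, of which 60 were measured and tested, gave the same count. None of the 60 passed in any of the 5 comparisons, and their median fl change was 0.06. The largest fl estimates were Samhd1 at 0.70 (adjusted p = 0.109), a phosphohydrolase that removes dNTPs, and Orc2 at 0.56, and the lowest were Rnaseh2c at -0.54 and Pold2, the second subunit of polymerase delta, at -0.41 (adjusted p = 0.192). Without line 10986, where 2.81% of all genes passed, 3 of the 60 did: Samhd1 rose (0.53, adjusted p = 0.0329), and Rnaseh2c (-0.80, adjusted p = 0.0167) and Pold4 (-0.55, adjusted p = 0.0277) fell. None of the 39 members passed in that fit.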

How the data were processed

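RNA of c-Kit-positive sorted cells was hybridised to 10 biotin-labelled 1-colour arrays, from 200 ng of total RNA per the labels' protocols, after culture with 20% serum, IL-3, IL-6 and SCF. The deposited values are 1 intensity for each probe set on each array, made by the authors with RMA (background correction, normalization and summary over probes) per the submitters' processing notes, and log2 was taken of these linear values. Median signals were 144.7 to 158.2. Arrays have no read depth, so their number limits the precision, and weak signals understate changes. Of 35556 probe sets, 21789 had 1 gene symbol in the platform annotation. Testing took genes whose mean log2 level was at least 6.23 (25th percentile over all probe sets).

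Changes with 4-OHT were fitted in limma 3.58.1 (R 4.3.3) with the line as a fixed block and a 4-OHT term for each genotype, and their difference is the contrast of both terms. The fl and wt lines were compared within a treatment by fitting the 4 groups, with duplicateCorrelation for the line as random block (0.165, statmod 1.5.0). Tests were two-sided and adjusted by Benjamini-Hochberg over 15662 genes at 0.05, with 3 residual and 6.69 total degrees of freedom in the line-block fit and 6 and 8.78 in the fit of 4 groups. The script was tested on simulated data with changes larger than any member's fl estimate, so that test says nothing of the power for smaller changes. The line pairs the arrays per the series design. Deviations from group means correlated at 0.78, 0.22 and -0.06 in fl lines 10949, 10950 and 10986, so in line 10986 they did not vary together. In the wt lines the value was 0.43, the same for both by construction because each wt group holds only those lines. The labels do not say whether the cultures of a line ran side by side.

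The members, roles, marker lists and tests were chosen with earlier results of these data known. Values on every array are given for members with the same direction in all 3 fl lines and a mean change of at least 0.3, and for the 3 largest estimates each way in each comparison. Mcm5, Mcm6 and the promoter windows shown were chosen after their values were seen. Alternatives changed the block, the level filter, the scaling, the prior variance, array weights, the choice of probe set, the genotypes fitted together and the lines included.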

Additional observations from a re-analysis of the deposited data

How the results depend on the processing

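No member passed under any alternative other than array weights, in 16 of 17 alternatives for the fl lines, 17 of 17 for the wt lines, 15 of 16 for the difference between them, and 14 of 15 each for fl minus wt under 4-OHT and under vehicle. Array weights called 10 members in the fl lines (E2f1, Ccne1, Ccne2, Mcm2, Mcm4, Gins2, Pold1, Rpa2, Rrm2 and Chaf1b), 1 for the difference (Pold1), 1 under 4-OHT (E2f1) and 24 under vehicle, beside 3907, 359, 1106 and 6237 of all genes. The line-block fit then gave line 10949 a weight of 5.713 and line 10986 one of 0.1624, so the fl result followed line 10949, and in the group-means fit the weights did not reach their tolerance (1 array had 116.5), so those counts are not reliable. On pairing, the fit with no replicate block called 28 of all genes for the fl change and 1 for the contrast of genotypes, with 0 members, and a random replicate block called 83 (17 higher, 66 lower) and 1. The count of all genes called in the fl lines, 24 (8 higher, 16 lower), was 8 with no level filter, 14 with the filter at the 50th percentile, 3 (1 higher, 2 lower) with arrays centred on their median, 50 (23 higher, 27 lower) with quantile normalization, and 0 with all probe sets tested or each genotype alone. It was 0 to 440 with 1 line left out, 440 without line 10986. For the difference it was 0 to 20 with 1 line left out, and 1 with no replicate block and without the vehicle array of line 10986. For fl minus wt under 4-OHT, 101 (29 higher, 72 lower) became 66 (10 higher, 56 lower) with centred arrays, 58 (25 higher, 33 lower) with quantile normalization, 36 with all probe sets and 0 to 51 with 1 line left out. Under vehicle, 3 became 0 with no filter, the 50th percentile filter or all probe sets, 1 with quantile normalization and 0 to 15 with 1 line left out. The members' wt median of -0.03 was 0.01 with quantile normalization, -0.05 with the mean of probe sets and -0.05 to -0.03 with 1 line left out, while the fl median ran between 0.00 and 0.19, that of the difference between 0.03 and 0.21, that under 4-OHT between -0.17 and 0.02 (0.02 without line 10950) and that under vehicle between -0.32 and -0.04. Among the genes named by the rule in each comparison, directions turned for Tk1 in the wt lines (0.02 with quantile normalization, -0.10 to 0.06 with 1 wt line left out), Ccne1 (-0.06 to 0.08) and E2f1 (-0.09 to 0.12) in the wt lines with 1 of them left out and Tk1 under vehicle (-0.01 with array weights, -0.22 with the mean of probe sets). Over all 39 members, leaving out 1 line turned 0 to 14 directions in the fl lines (14 without line 10986, among them Prim1, Orc6 and Orc1), 0 to 9 in the wt lines, 0 to 5 for the difference, 1 to 12 under 4-OHT and 0 to 5 under vehicle, and the other settings that keep all lines turned at most 11, 5, 9, 6 and 11, while no block without the vehicle array of line 10986 turned 15 in the fl lines. These turns go by sign alone, and no share over all genes is given for them. Where no construction of the alternative shows it, the cause was not tested. The number of arrays, 10, limits the precision, which the intervals give.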
